A study of Mus musculus with 37 samples.

Results

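The genes described here are 9 genes of interleukin-6 (IL-6) family signalling in the mouse hippocampus: the ligand gene Cntf, the receptor genes Il6st, Lifr, Osmr, Il27ra and Cntfr, the kinase gene Jak1, the transcription factor gene Stat3 and the inhibitor gene Socs3. They were chosen by name from 48795 genes counted by RNA-seq, and the choice was made with the measured difference between Kdm1a-ifKO and control libraries in view, so their differences are a description and give no test of the genes. Of the 9, 8 had enough counts to pass the filter on low counts, which 16799 of the counted genes passed, and Cntf did not.

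The study asked what the histone demethylase Kdm1a does in adult neurons, and 6 of its 37 samples are RNA-seq libraries, 3 per genotype and each from 1 mouse. Kdm1a-ifKO mice carried Kdm1a f/f alleles and the Camk2a-creERT2 transgene and received tamoxifen. Controls, labelled WT, were littermates without the transgene that received tamoxifen too. All mice were male, tamoxifen was given to adults, and the age at collection is not stated in the labels. The Camk2a promoter limits recombination to excitatory forebrain neurons, while RNA came from whole hippocampus, so every other cell type contributed RNA with an intact Kdm1a gene. Another sample used here is 1 library of CTCF ChIA-PET, an assay that counts paired-end tags (PETs) joining pairs of CTCF-bound sites, from sorted nuclei of hippocampal excitatory neurons. It is labelled WT, male and tamoxifen-treated; by the study's methods such nuclei were isolated from adult mice carrying Camk2a-creERT2 and the nuclear tag CAG-Sun1/sfGFP, so they are not from the RNA-seq control littermates. It has no replicate.

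Cytokines of the IL-6 family bind receptor chains that share the signalling subunit gp130, the product of Il6st. Bound receptors activate JAK kinases, which phosphorylate STAT3; STAT3 then enters the nucleus and switches on target genes, among them Socs3, whose product blocks the receptor complex. In the brain this pathway is best known for neuronal survival through CNTF and LIF and for the reactive response of astrocytes.

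Total counts per library were 19160327, 19088998 and 18985542 in control replicates 1 to 3 and 19469947, 19445743 and 19370926 in Kdm1a-ifKO replicates 1 to 3. A count of 0 allows a level of up to 0.161 CPM (a gene's counts scaled to a common library size) in the shallowest library, by counting error alone. Differences are log2 fold changes (log2FC) of Kdm1a-ifKO over control from edgeR, with a standard error (SE). A gene is said to pass the threshold at a p of edgeR under 0.05 after adjustment over all tested genes. At that threshold 1014 genes were higher in Kdm1a-ifKO (6.04% of tested genes) and 473 were lower (2.82%).

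The targeted gene was read first. Kdm1a had 1521, 1545 and 1481 counts in controls and 764, 726 and 748 in Kdm1a-ifKO. The groups did not overlap. Its level was 80.1 ± 0.897 CPM in controls and 38.2 ± 1.23 CPM in Kdm1a-ifKO (SD, n = 3 each). The log2FC was -1.07 (SE 0.0559) with an edgeR adjusted p of 6.24e-08, lower in 3 of 3 libraries, and the two-sided exact permutation test over the 6 libraries gave p = 0.1, the smallest that 20 splits allow. In bulk tissue, fewer cells of a type and less RNA per cell cannot be told apart, here and for every gene below.

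Libraries also differed in ways that genotype does not give. Kdm1a-ifKO replicate 2 had 877 counts of the smooth muscle gene Acta2, against 319 to 384 in the other 5 libraries. It also had 183 counts of Lcn2, against 1 to 44. Lcn2 stands in the list of STAT3-responsive genes used below. Control replicate 1 had 611 counts of the choroid plexus gene Ttr, against 64 to 204 elsewhere. Control replicate 3 differed more from the other controls over all genes (chi-square per degree of freedom 7.59 and 6.56) than those did from each other (2.95). Without it and Kdm1a-ifKO replicate 2 together, the log2FC was 0.55 for Stat3, 0.31 for Cntfr, 1.02 for Il27ra, 0.33 for Osmr, 0.38 for Socs3 and -0.12 for Lifr.

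The fit over all genes placed 4 of the 8 members that passed the filter (Stat3, Il27ra, Osmr and Cntfr) beyond its threshold toward higher counts in Kdm1a-ifKO, beside 6.04% of all tested genes. This difference was in view when the members were chosen, so the count is not a test and nothing is read from it. The count of higher members was 2 with DESeq2 and when control replicate 1, control replicate 2 or Kdm1a-ifKO replicate 3 was left out. Il27ra was in it under 7 of 12 alternatives and Osmr under 4 of 12, and DESeq2 placed neither there. Lifr, which was lower, crossed the threshold when control replicate 1 was left out. In 5 members all Kdm1a-ifKO libraries lay above all controls, beside 15.7% of tested genes, and in 1 member, Lifr, all lay below, beside 14.4%.

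**Figure D1:**
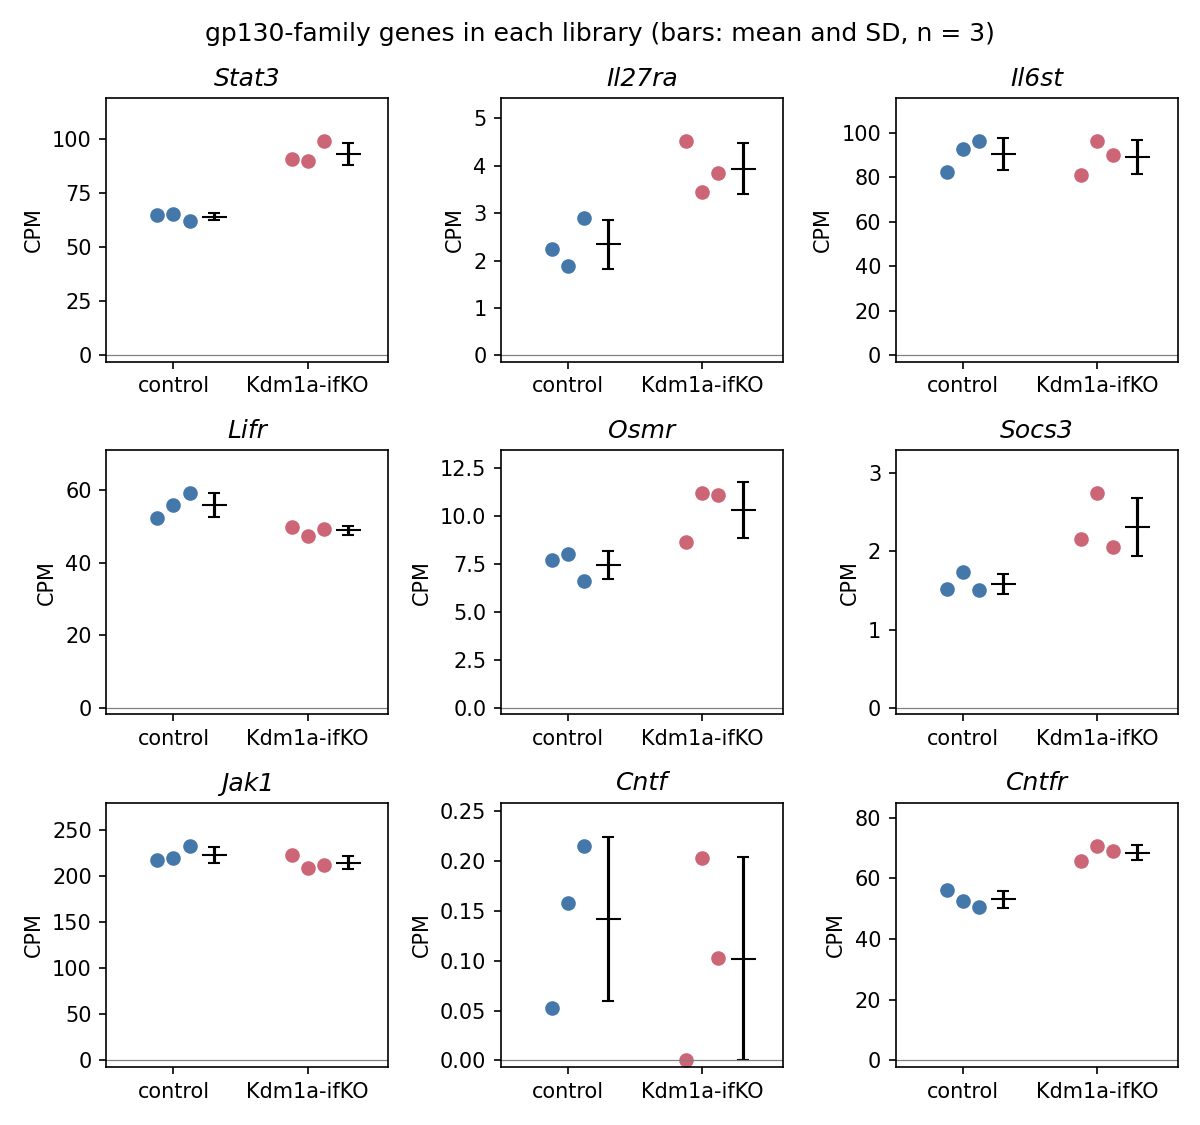
CPM of the 9 genes in each of the 3 control (blue) and 3 Kdm1a-ifKO (red) libraries, with the mean and SD of each group beside the points. Stat3, Il27ra, Osmr, Socs3 and Cntfr show groups that do not overlap, with Kdm1a-ifKO higher; Lifr shows the same with Kdm1a-ifKO lower.

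The ligand gene Cntf (ENSMUSG00000079415, GRCm38 chr19:12763660-12765632, minus strand) encodes ciliary neurotrophic factor. It had 1, 3 and 4 counts in controls and 0, 4 and 2 in Kdm1a-ifKO. A difference was not detectable at this depth. Of its 1073 exon bases, 847 (78.9%) are also exon of Zfp91 on the same strand, so the low count is uncertain as a measure of Cntf.

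The shared signalling subunit is encoded by Il6st (ENSMUSG00000021756, chr13:112464070-112510086, plus strand). Its counts were 1575, 1769 and 1790 in controls and 1580, 1898 and 1751 in Kdm1a-ifKO. The groups overlapped throughout. Its level was 90.5 ± 7.22 CPM in controls and 89.2 ± 7.58 CPM in Kdm1a-ifKO (SD, n = 3 each), with a log2FC of -0.02 (SE 0.0739). The sign depended on the scaling and on single libraries: the log2FC was 0.0058 with upper-quartile scaling, 0.028 when control replicate 3 was left out and 0.042 when Kdm1a-ifKO replicate 1 was.

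Lifr (ENSMUSG00000054263, chr15:7090614-7197489, plus strand) encodes the receptor chain that pairs with gp130 for LIF and CNTF. It had 1004, 1068 and 1101 counts in controls and 972, 935 and 962 in Kdm1a-ifKO. Every Kdm1a-ifKO library was below every control, by a small margin. Its level was 55.9 ± 3.33 CPM in controls and 48.9 ± 1.32 CPM in Kdm1a-ifKO (SD, n = 3 each), and the log2FC was -0.19 (SE 0.0619). With 1 library left out the log2FC ranged from -0.23 (control replicate 1) to -0.15.

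Osmr (ENSMUSG00000022146, chr15:6813577-6874969, minus strand) encodes the chain that pairs with gp130 for oncostatin M. Counts were 147, 153 and 123 in controls and 168, 220 and 216 in Kdm1a-ifKO. Kdm1a-ifKO replicate 1 lay close above the controls and the other 2 stood clearly higher. The level was 7.44 ± 0.742 CPM in controls and 10.3 ± 1.44 CPM in Kdm1a-ifKO (SD, n = 3 each), with a log2FC of 0.47 (SE 0.132). With 1 library left out the log2FC ranged from 0.39 (control replicate 3) to 0.58 (Kdm1a-ifKO replicate 1), and it was 0.33 without control replicate 3 and Kdm1a-ifKO replicate 2 together.

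Il27ra (ENSMUSG00000005465, chr8:84030294-84042589, minus strand) encodes the receptor chain that pairs with gp130 for interleukin-27. It had 43, 36 and 54 counts in controls and 88, 68 and 75 in Kdm1a-ifKO. The groups did not overlap, and the numbers are small. The level was 2.35 ± 0.513 CPM in controls and 3.94 ± 0.542 CPM in Kdm1a-ifKO (SD, n = 3 each), and the log2FC was 0.75 (SE 0.199). With 1 library left out the log2FC ranged from 0.61 (control replicate 2) to 0.93. Palm3, on the opposite strand, shares 2 of 3495 exon bases with it, and the strand setting of the counting is not stated.

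Cntfr (ENSMUSG00000028444, chr4:41657498-41697089, minus strand) encodes the chain that binds CNTF and presents it to LIFR and gp130. It had 1071, 1002 and 942 counts in controls and 1279, 1392 and 1342 in Kdm1a-ifKO. Each Kdm1a-ifKO library exceeded each control. The level was 53.1 ± 2.72 CPM in controls and 68.4 ± 2.48 CPM in Kdm1a-ifKO (SD, n = 3 each), with a log2FC of 0.37 (SE 0.06) that ranged from 0.31 to 0.41 over 12 alternatives.

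Jak1 (ENSMUSG00000028530, chr4:101152367-101265282, minus strand) encodes the kinase that gp130 receptors use most. It had 4163, 4184 and 4340 counts in controls and 4335, 4121 and 4139 in Kdm1a-ifKO. The groups overlapped. The level was 224 ± 8.45 CPM in controls and 215 ± 7.14 CPM in Kdm1a-ifKO (SD, n = 3 each), with a log2FC of -0.06 (SE 0.0516). Raver2 on the opposite strand shares 4 of its 7227 exon bases.

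Stat3 (ENSMUSG00000004040, chr11:100885098-100939540, minus strand) encodes the transcription factor of the pathway. It had 1239, 1248 and 1161 counts in controls and 1766, 1774 and 1934 in Kdm1a-ifKO. The groups stood far apart compared with the spread inside each. The level was 64.2 ± 1.64 CPM in controls and 93.4 ± 5.14 CPM in Kdm1a-ifKO (SD, n = 3 each), with a log2FC of 0.54 (SE 0.0575). Over 12 alternatives the log2FC ranged from 0.49 to 0.57. Stat5a on the opposite strand shares 72 of the 9527 exon bases of Stat3 (0.756%), and it had 22 to 44 counts per library.

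Socs3 (ENSMUSG00000053113, chr11:117966079-117970047, minus strand) encodes the inhibitor that STAT3 induces. It had 29, 33 and 28 counts in controls and 42, 54 and 40 in Kdm1a-ifKO. The groups did not overlap, at a low depth. The level was 1.58 ± 0.128 CPM in controls and 2.32 ± 0.37 CPM in Kdm1a-ifKO (SD, n = 3 each), and the log2FC was 0.55 (SE 0.213), or 0.41 to 0.62 with 1 library left out.

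Promoter sequences are shown for Stat3 and Osmr, which were higher in Kdm1a-ifKO, and for Socs3, the STAT3 target of the family, because STAT dimers are known to bind the letters TTCNNNGAA. The sequences are RefSeq promoters of GRCm38.p6, from 250 bases before to 50 after the RefSeq start of the gene, 5′ to 3′ on the gene's strand (minus for each), and capitals mark a match to TTCNNNGAA, which reads the same on both strands. They lie at chr11:100939491-100939790 (Stat3), chr15:6874264-6874563 (Osmr) and chr11:117969317-117969616 (Socs3).
Stat3 promoter: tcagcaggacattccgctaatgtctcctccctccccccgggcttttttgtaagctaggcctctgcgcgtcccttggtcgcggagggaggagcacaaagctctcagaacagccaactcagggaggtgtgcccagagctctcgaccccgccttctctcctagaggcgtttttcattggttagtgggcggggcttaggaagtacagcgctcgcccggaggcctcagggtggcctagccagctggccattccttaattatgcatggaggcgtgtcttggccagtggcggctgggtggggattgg
Osmr promoter: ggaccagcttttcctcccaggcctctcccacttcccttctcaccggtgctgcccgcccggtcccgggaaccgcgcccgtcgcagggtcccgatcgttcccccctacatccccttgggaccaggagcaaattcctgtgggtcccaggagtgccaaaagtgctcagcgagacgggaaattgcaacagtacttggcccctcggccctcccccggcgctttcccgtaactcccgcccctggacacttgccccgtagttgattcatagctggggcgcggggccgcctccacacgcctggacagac
Socs3 promoter: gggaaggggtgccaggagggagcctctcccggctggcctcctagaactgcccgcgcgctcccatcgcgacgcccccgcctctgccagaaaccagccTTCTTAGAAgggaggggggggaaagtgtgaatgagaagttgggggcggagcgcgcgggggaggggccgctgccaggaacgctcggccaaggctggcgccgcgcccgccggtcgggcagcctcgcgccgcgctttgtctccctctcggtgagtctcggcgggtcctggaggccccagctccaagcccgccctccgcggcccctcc
These RefSeq starts are not the GENCODE starts used for the gene coordinates and the distances: the start is the same for Stat3, but for Osmr it lies 656 bases and for Socs3 681 bases inside the GENCODE gene, and so do the windows. The Socs3 window holds the match TTCTTAGAA 154 bases before its RefSeq start. Over all promoters in the table, 2726 of 32851 (8.3%) hold a match. The table had entries for 8 of the 9 members, with 14 promoters, of which 1 held a match. Il27ra has no entry. A match is a string of letters and says nothing about binding in these mice.

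Levels between genes were compared per length, as TPM, the usual length-scaled transcript level, from the summed exon length. In controls the order was Jak1 (123 ± 4.21 TPM), Cntfr (75.8 ± 4.19 TPM), Il6st (32.4 ± 2.47 TPM), Stat3 (26.8 ± 0.761 TPM) and Lifr (20.6 ± 1.15 TPM), each SD with n = 3. Then came Il27ra (2.67 ± 0.576 TPM), Osmr (2.44 ± 0.25 TPM), Socs3 (2.18 ± 0.177 TPM) and Cntf (0.524 ± 0.304 TPM), again SD with n = 3. The first 5 were each set apart from the next gene in all 3 control libraries. Il27ra and Osmr overlapped, as did Osmr and Socs3, so their order is not settled. Without control replicate 3 Il27ra took rank 7. The last place of Cntf is uncertain too, because 847 of its 1073 exon bases are also exon of Zfp91. In Kdm1a-ifKO, Stat3 stood at 39.2 ± 2.01 TPM, above Il6st at 32.1 ± 2.93 TPM (SD, n = 3 each). In controls Il6st was above Stat3 by summed exon length, but by the length of the longest transcript Stat3 already had rank 3 and Il6st rank 4 there, so the order of this pair depends on the length used.

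**Figure D2:**
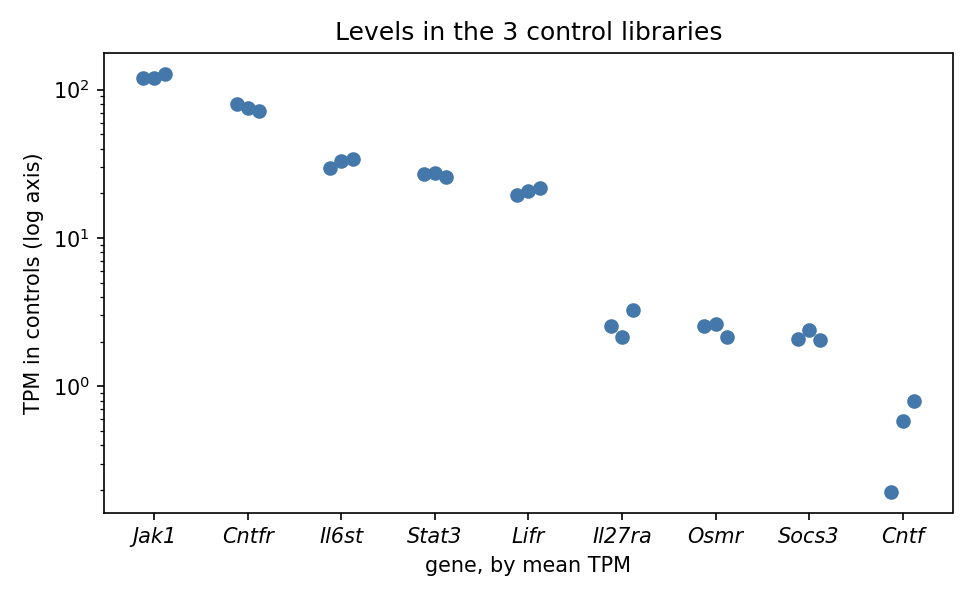
TPM of the 9 genes in each of the 3 control libraries, on a log axis and ordered by the mean. Jak1 to Lifr form a group at 19.4 TPM and above, and the other 4 genes lie at 3.29 TPM or below. The level of Cntf is uncertain, because most of its exon bases are shared with Zfp91.

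The genes whose log2 CPM followed that of Stat3 most closely over the 6 libraries were Wtip (Pearson r 0.998), Inppl1 (0.996) and Crhr1 (0.996). For Il27ra they were Ntf5 (r 0.992), Zfp629 (0.991) and Grk4 (0.989). The 6 points share 2 genotypes, so these values mostly describe the split between groups. Ntf5 was near the floor in controls, at a mean of 0.159 CPM, where a count of 0 allows up to 0.161 CPM.

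Wider lists place these genes among the rest of the pathway, and adjusted p-values are given for genes outside the 9. These lists, too, were chosen with earlier results of these data known, so their counts describe the lists and support nothing. Of 94 listed genes 68 were tested, of which 10 were higher and 1 was lower (beside 6.04% and 2.82% of all tested genes, which are the shares to set beside each list below), and their median log2FC was 0.13, against -0.0034 over all tested genes. Leaving out 1 library gave 9 (control replicate 1), 9 (control replicate 2), 9 (control replicate 3), 8 (Kdm1a-ifKO replicate 1), 10 (Kdm1a-ifKO replicate 2) and 7 (Kdm1a-ifKO replicate 3) in place of 11 genes.

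Of 10 ligand genes 4 were tested, 2 rose and the median log2FC was 0.84. Clcf1, which encodes a ligand of the CNTF receptor, had 22, 32 and 42 counts in controls and 83, 78 and 67 in Kdm1a-ifKO. Its groups did not overlap, with a log2FC of 1.20 (SE 0.228, edgeR adjusted p 0.00538), higher in 3 of 3 libraries. Of its 3806 exon bases, 311 (8.17%) are shared with another annotated gene on the same strand.

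Il11, which signals through gp130 with IL-11 receptor alpha, had 4, 13 and 8 counts in controls and 22, 27 and 28 in Kdm1a-ifKO. The counts are few and the groups do not overlap; the log2FC was 1.56 (SE 0.365, edgeR adjusted p 0.0179). Il11 no longer passed when control replicate 1 (log2FC 1.23) or Kdm1a-ifKO replicate 3 (1.49) was left out. Lif had 30, 33 and 30 counts in controls and 53, 39 and 42 in Kdm1a-ifKO and did not pass (log2FC 0.48, edgeR adjusted p 0.185). Il6 had 1 to 3 counts in each library and Osm 1 to 4, too few to test.

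Of the 4 other receptor genes 2 were tested, 1 rose and the median log2FC was 0.35. Il11ra1, the alpha chain for IL-11, had 313, 277 and 271 counts in controls and 389, 381 and 371 in Kdm1a-ifKO. All Kdm1a-ifKO libraries were above all controls (log2FC 0.36, SE 0.0825, edgeR adjusted p 0.0161). Its log2FC fell short of the threshold when control replicate 2 (0.33) or Kdm1a-ifKO replicate 1 (0.34) was left out. Il6ra, the alpha chain for IL-6, had a log2FC of 0.34 and did not pass (edgeR adjusted p 0.0689), though it did with upper-quartile scaling and without the filter on low counts.

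Of 11 other JAK, STAT and adaptor genes 10 were tested, 2 rose and the median log2FC was 0.17. Stat6, which serves interleukin-4 receptors, had 221, 205 and 242 counts in controls and 306, 376 and 397 in Kdm1a-ifKO. These groups were set well apart (log2FC 0.64, SE 0.111, edgeR adjusted p 0.00263). The kinase gene Tyk2 was higher in 3 of 3 libraries by a small log2FC of 0.28 (edgeR adjusted p 0.0259). It did not pass without control replicate 2 (log2FC 0.24), Kdm1a-ifKO replicate 1 (0.26) or Kdm1a-ifKO replicate 3 (0.25). Stat2 (log2FC 0.24, edgeR adjusted p 0.0517) and Gab1 (0.26, adjusted p 0.0554) did not pass, but both did with upper-quartile scaling and without the filter on low counts, where the list's count was 4. Stat2 also passed with DESeq2 size factors and when control replicate 2 was left out, and Gab1 when control replicate 1 was.

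Of 14 negative regulators other than Socs3, 13 were tested and edgeR called 0, with a median log2FC of -0.03. At an unadjusted edgeR p under 0.05 there were 4 of 13, beside 4108 of all 16799 tested genes, and DESeq2 called 0. Without control replicate 2, and without the filter on low counts, edgeR called 1, Ptpn6, which had a log2FC of 0.58 with all libraries (adjusted p 0.0812). The most abundant, Socs7, was at 180 ± 8.01 CPM in controls and 176 ± 6.66 CPM in Kdm1a-ifKO (SD, n = 3 each).

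Of 21 STAT3-responsive genes 17 were tested, 2 rose, 1 fell and the median log2FC was 0.0098, so the list as a whole lay near the median of all tested genes. The cell cycle gene Ccnd1 had 908, 897 and 722 counts in controls and 1281, 1151 and 1304 in Kdm1a-ifKO (log2FC 0.52, edgeR adjusted p 0.00215). Its groups did not overlap. Lrg1 had 17, 18 and 19 counts in controls and 31, 55 and 33 in Kdm1a-ifKO, with Kdm1a-ifKO replicate 2 highest (log2FC 1.09, edgeR adjusted p 0.0282), and did not pass without control replicate 1 (log2FC 1.04), control replicate 2 (1.08) or Kdm1a-ifKO replicate 2 (0.78), nor with DESeq2 or with control replicate 3 and Kdm1a-ifKO replicate 2 left out together. Hif1a fell (log2FC -0.26, edgeR adjusted p 0.026), though not past the threshold without control replicate 2 (-0.28), control replicate 3 (-0.22), Kdm1a-ifKO replicate 1 (-0.28) or Kdm1a-ifKO replicate 3 (-0.21), nor with the replicate block. Gfap, a STAT3 target of astrocytes that also stands in the astrocyte list, was higher in 3 of 3 libraries by a log2FC of 0.38 and did not pass (edgeR adjusted p 0.107), though it did without the filter on low counts. Icam1 had 53, 72 and 43 counts in controls and 73, 137 and 108 in Kdm1a-ifKO, and the groups overlapped slightly by CPM; it did not pass (log2FC 0.87, edgeR adjusted p 0.0517), but did with DESeq2, upper-quartile scaling, no filter on low counts or the replicate block, and when control replicate 2 or Kdm1a-ifKO replicate 1 was left out.

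Of 34 other cytokine receptor genes 22 were tested, 3 rose and the median log2FC was 0.25. Csf2ra, the receptor chain for GM-CSF, had a log2FC of 0.63 (edgeR adjusted p 1.90e-04). Epor, the erythropoietin receptor, had 109, 95 and 92 counts in controls and 179, 189 and 222 in Kdm1a-ifKO (log2FC 0.95, edgeR adjusted p 4.48e-04). Neither gene showed an overlap between the groups. Il20rb (log2FC 0.62, edgeR adjusted p 0.0444) did not pass without control replicate 1 (0.55), control replicate 2 (0.67), control replicate 3 (0.65), Kdm1a-ifKO replicate 1 (0.54) or Kdm1a-ifKO replicate 3 (0.52), nor with DESeq2 or the replicate block. Il13ra2, too low to be tested, passed without the filter on low counts. It had 1 count in each control and 1, 18 and 3 in Kdm1a-ifKO replicates 1 to 3. The groups overlapped, and Kdm1a-ifKO replicate 2 held most of its counts.

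**Figure D3:**
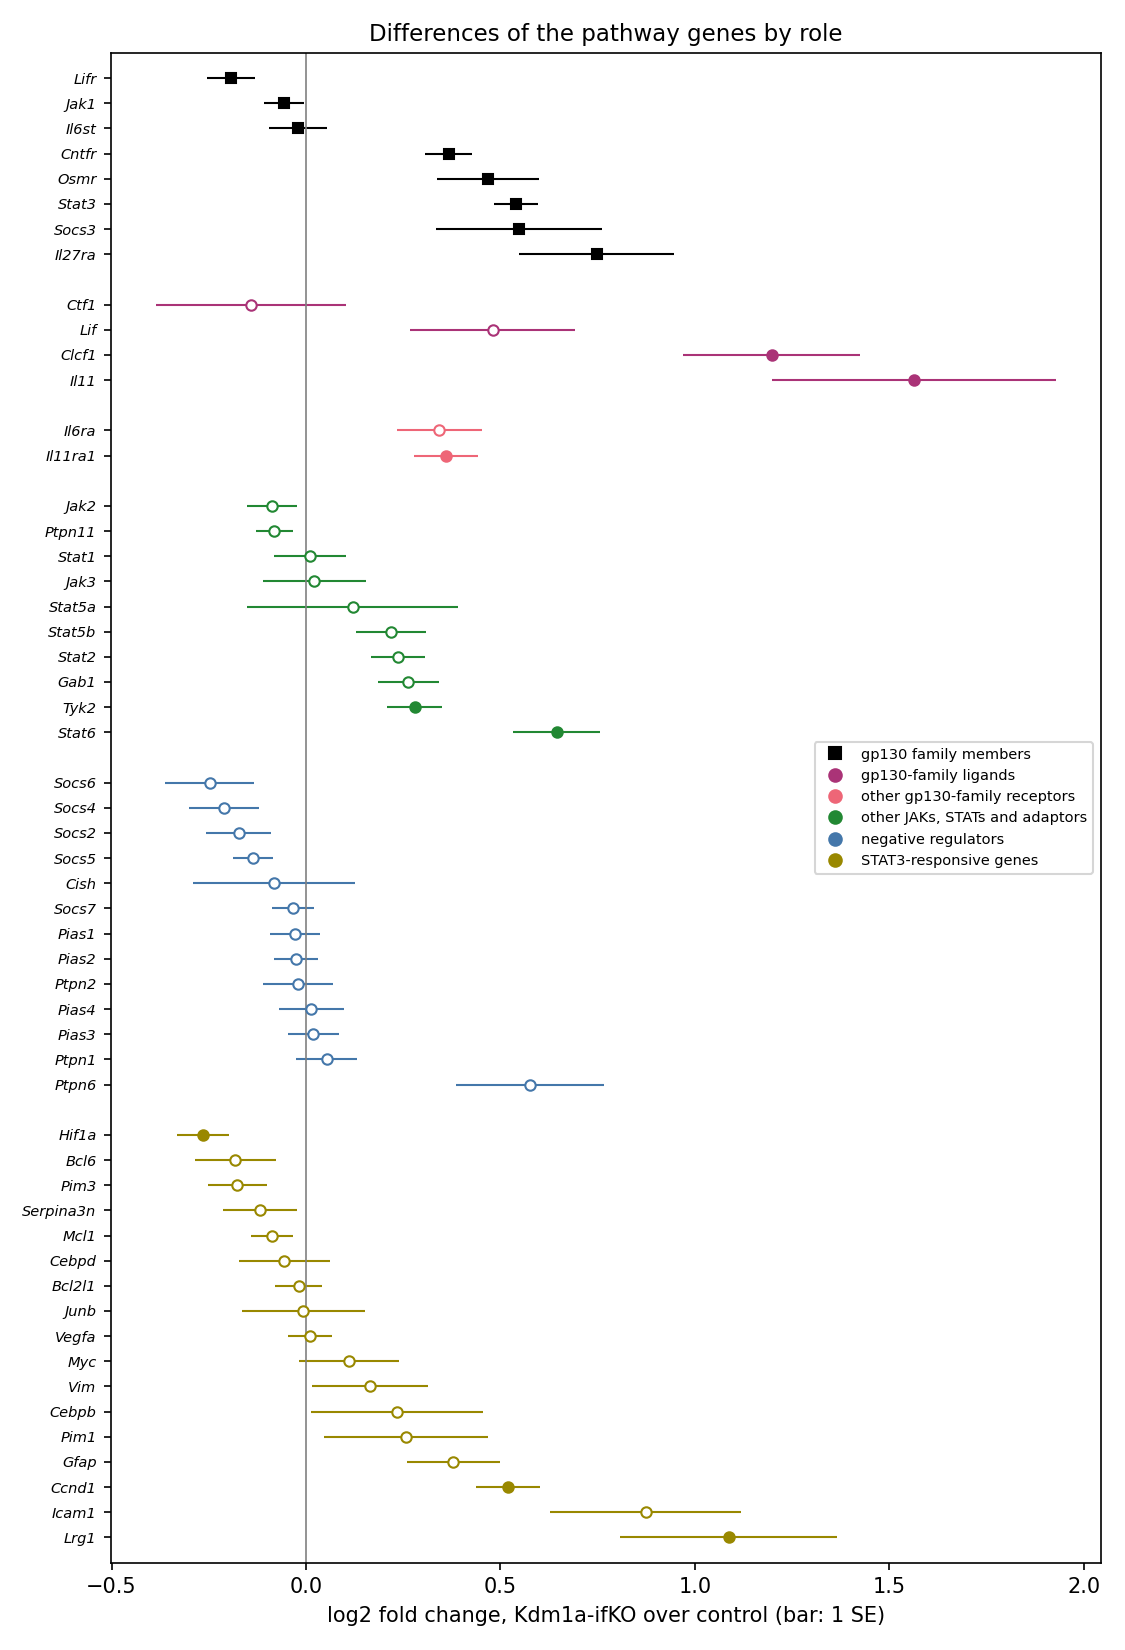
Log2FC of Kdm1a-ifKO over control with 1 SE for the tested genes, grouped by role. Black squares are the 8 members that passed the filter, shown with no call; filled circles are genes with an edgeR adjusted p under 0.05 and open circles are the rest. Clcf1 and Il11 lie at 1.20 and 1.56, while the negative regulators scatter around a median of -0.03.

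Marker lists describe the cells in the tissue, since astrocytes, microglia and vessel cells also express gp130 receptors. Excitatory neuron markers were high in all libraries, as the hippocampal label requires: Camk2a made up 62.2% of their summed CPM, which ran from 7343 to 7761 in controls and from 7208 to 7972 in Kdm1a-ifKO. Prox1, a marker of dentate granule cells, had 1798 to 2201 counts per library. Of 6 of these markers, Neurod6 fell (log2FC -0.36, edgeR adjusted p 0.00419). Of 6 interneuron markers, led by Gad1, Vip fell (log2FC -0.46, edgeR adjusted p 0.0122), but not past the threshold without Kdm1a-ifKO replicate 1 (-0.41) or replicate 3 (-0.42).

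Astrocyte markers summed to 5814, 5620 and 6262 CPM in controls and 6285, 6499 and 6634 CPM in Kdm1a-ifKO, a ratio of 1.10, with Slc1a2 the most abundant. All 10 were tested and had a positive log2FC, beside 49.1% of all tested genes, with a median of 0.20. In 6 of them all Kdm1a-ifKO libraries lay above all controls, beside 15.7% of tested genes. Of the 10, 4 rose past the threshold. The count was 3 without control replicate 1, 1 without control replicate 2, 2 without Kdm1a-ifKO replicate 1, 3 without Kdm1a-ifKO replicate 2, 1 without Kdm1a-ifKO replicate 3, 3 with the replicate block and 6 without the filter on low counts. Sox9 (log2FC 0.38, edgeR adjusted p 0.00562) passed in each fit with 1 library left out. S100b (log2FC 0.26, adjusted p 0.0111) did not pass when control replicate 2 (0.23) or Kdm1a-ifKO replicate 3 (0.22) was left out. Slc1a3 (log2FC 0.22, adjusted p 0.0161) did not pass when control replicate 1 (0.20), control replicate 2 (0.19), Kdm1a-ifKO replicate 1 (0.23) or Kdm1a-ifKO replicate 3 (0.21) was left out. Aldoc (log2FC 0.20, adjusted p 0.0258) did not pass without control replicate 2 (0.18), without Kdm1a-ifKO replicate 1 (0.22), 2 (0.20) or 3 (0.18), or with the replicate block. The defining marker Aqp4 did not pass (log2FC 0.10, adjusted p 0.363).

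Microglia markers summed to 446, 418 and 457 CPM in controls and 479, 558 and 623 CPM in Kdm1a-ifKO, a ratio of 1.26 (1.25 without Kdm1a-ifKO replicate 2), with Csf1r the most abundant. All 10 were tested and had a positive log2FC, beside 49.1% of all tested genes, with a median of 0.34. In 7 of them all Kdm1a-ifKO libraries lay above all controls, beside 15.7% of tested genes. With all libraries 4 passed the edgeR threshold, and each of these calls depended on single libraries. The count was 0 without control replicate 1, control replicate 2 or Kdm1a-ifKO replicate 3, 2 without control replicate 3, 1 without Kdm1a-ifKO replicate 2, 7 without Kdm1a-ifKO replicate 1 and 7 with DESeq2. Cx3cr1 (log2FC 0.27, adjusted p 0.0208) did not pass when control replicate 1 (0.26), control replicate 2 (0.24), Kdm1a-ifKO replicate 2 (0.26) or Kdm1a-ifKO replicate 3 (0.22) was left out. Csf1r (log2FC 0.33, adjusted p 0.0377) did not pass without control replicate 1 (0.33), 2 (0.29) or 3 (0.36), or without Kdm1a-ifKO replicate 2 (0.31) or 3 (0.24). C1qb (log2FC 0.35, adjusted p 0.0381) did not pass without control replicate 1 (0.36), 2 (0.34) or 3 (0.36), or without Kdm1a-ifKO replicate 2 (0.33) or 3 (0.26). Tmem119 (log2FC 0.42, adjusted p 0.0462) did not pass without control replicate 1 (0.46), 2 (0.36) or 3 (0.44), or without Kdm1a-ifKO replicate 3 (0.27). Csf1r, C1qb and Tmem119 also fell short with control replicate 3 and Kdm1a-ifKO replicate 2 left out together (0.34, 0.34 and 0.49).

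The count over all marker lists was 11 genes, and it was 7 without control replicate 1, 4 without control replicate 2, 10 without control replicate 3, 12 without Kdm1a-ifKO replicate 1, 7 without Kdm1a-ifKO replicate 2 and 3 without Kdm1a-ifKO replicate 3. The ratio of summed levels was 1.10 for astrocyte, 1.26 for microglia and 1.42 for leukocyte markers (1.31 for the last without Kdm1a-ifKO replicate 2). The ratio of mean CPM was 1.29 for Cntfr, 1.38 for Osmr, 1.45 for Stat3, 1.46 for Socs3 and 1.68 for Il27ra. The part of these cell types in the differences of the 9 genes was not tested.

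Among 7 mural and fibroblast markers, led by Rgs5, Pdgfrb rose (log2FC 0.39, edgeR adjusted p 0.0049). By edgeR 0 of 9 oligodendrocyte markers (led by Mbp), 0 of 7 endothelial markers (led by Flt1), 0 of 2 tested leukocyte markers and 0 of 4 tested choroid plexus and ependyma markers (led by Ttr) passed. At an unadjusted edgeR p under 0.05 these counts were 1, 0, 1 and 0, beside 4108 of all 16799 tested genes, and DESeq2 called 0 in each list. The oligodendrocyte count was 1 without Kdm1a-ifKO replicate 1 (Mbp), and 1 without control replicate 1, with upper-quartile scaling or without the filter on low counts (Cspg4 in each). The endothelial marker Cldn5 had a log2FC of 0.07 with all libraries, -0.0015 when control replicate 3 was left out and -0.048 when Kdm1a-ifKO replicate 2 was. Leukocyte markers were near the floor, with 6 of 9 (Cd3e, Cd8a, Ms4a1, Ly6g, S100a8 and Nkg7) at 0 in at least 1 library. Ptprc made up 83.0% of their sum, with 65, 76 and 91 counts in controls and 97, 136 and 117 in Kdm1a-ifKO; it did not pass (log2FC 0.54, edgeR adjusted p 0.0741) but did without control replicate 3 (log2FC 0.69) and without the filter on low counts.

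**Figure D4:**
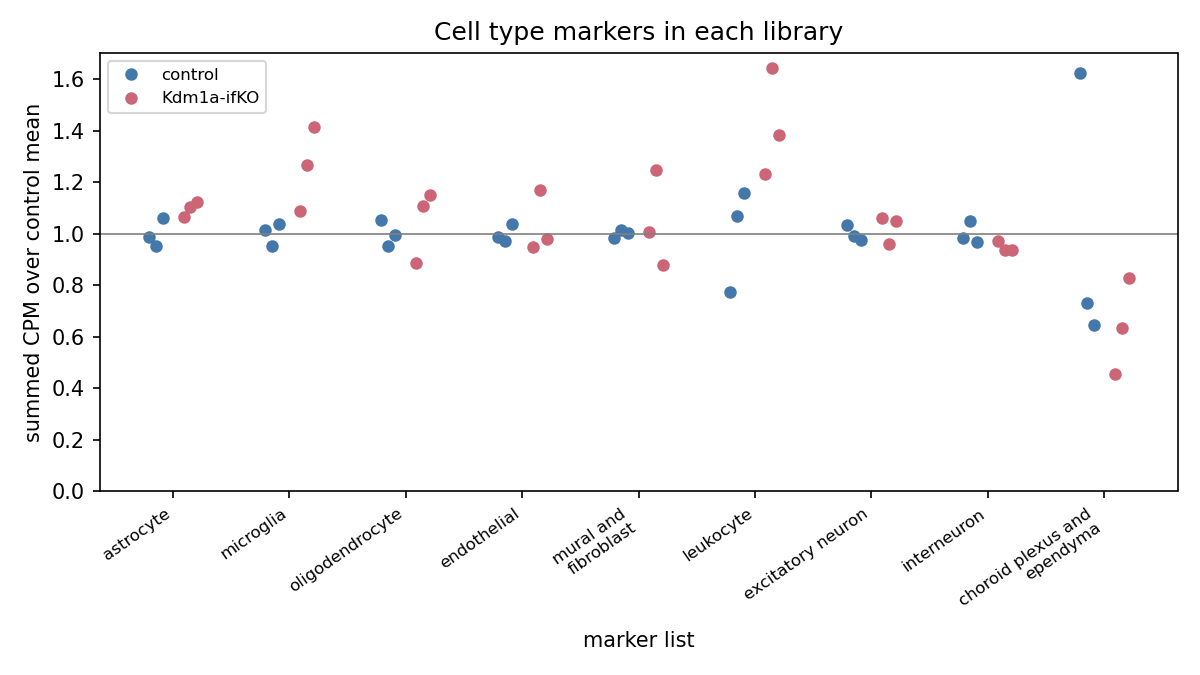
Summed CPM of each cell type marker list in each library, divided by the mean of the 3 controls (blue, control; red, Kdm1a-ifKO). Astrocyte, microglia and leukocyte sums are above all controls in all Kdm1a-ifKO libraries, and the other lists overlap.

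Position was not used to choose the genes. Within 100 kb of a member's start lay the starts of 28 tested genes, of which 4 rose (14.3%, beside 6.04% of all tested genes) with a median log2FC of 0.15. Distances here are between starts, so gene bodies can lie closer, and Palm3 overlaps Il27ra. Near Il27ra, Samd1 (44.9 kb away) had 408, 357 and 368 counts in controls and 581, 590 and 577 in Kdm1a-ifKO (log2FC 0.58, edgeR adjusted p 2.04e-04). Its groups were far apart. Palm3 (21.1 kb away) had 85, 141 and 102 counts in controls and 189, 169 and 173 in Kdm1a-ifKO (log2FC 0.65, adjusted p 0.0275), and did not pass without control replicate 1 (0.49), control replicate 3 (0.62), Kdm1a-ifKO replicate 1 (0.60) or Kdm1a-ifKO replicate 3 (0.66), nor with control replicate 3 and Kdm1a-ifKO replicate 2 left out together. The transcript 2210011C24Rik (30.4 kb away) had 3 to 6 counts in controls and 12 to 18 in Kdm1a-ifKO (log2FC 1.72, adjusted p 0.0228), and did not pass without control replicate 2 (1.66), control replicate 3 (1.53), Kdm1a-ifKO replicate 1 (1.71) or Kdm1a-ifKO replicate 3 (1.56), nor with DESeq2. On the other side of Il27ra the closest gene, Gm10643 (22.5 kb), did not pass (log2FC 0.45, adjusted p 0.142).

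The genes with the closest start on each side of Stat3, Cavin1 (31.3 kb, log2FC 0.25, edgeR adjusted p 0.286) and Stat5a (80.2 kb, log2FC 0.12, adjusted p 0.832), did not pass. The body of Stat5a overlaps the end of Stat3. The fourth neighbour that rose is Il11ra1, whose annotated start in GENCODE lies 2.9 kb from that of Cntfr on the opposite strand. The RefSeq starts of Il11ra1 lie 60454 and 62321 bases farther along, so the short distance holds for the GENCODE start only. Il6st, Lifr and Osmr had no tested neighbour within 100 kb.

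CTCF loops of sorted neurons with intact Kdm1a alleles give another readout that the choice did not use, in 1 library. It lists 27786 loops with 3 to 1242 PETs and a median of 5. A loop anchor lay within 10 kb of the gene body in 9 of 9 members, over 36 distinct loops, and in 56.9% of tested genes, which do not include Cntf. For several members the strongest loop lay near the library median: it had 3 PETs for Lifr, 4 for Il6st, 5 for Il27ra and Cntf and 6 for Jak1. The strongest at a member was a loop of 120 PETs with an anchor 6.8 kb from the start of Cntfr, chr4:41463547-41473003 to chr4:41703926-41715901. That anchor also lies inside the GENCODE body of Il11ra1, while the RefSeq starts of Il11ra1 lie beyond it. Stat3 had 1 loop, of 77 PETs, from chr11:100890462-100895192 inside the gene to chr11:100956325-100961288, which lies 16.8 kb before its start. Socs3 had 7 loops, the strongest of 42 PETs, with an anchor across its start.

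Osmr and Lifr are neighbours on chromosome 15, with starts 215.6 kb apart on opposite strands. Next to Osmr, overlapping anchors 5.5 kb and 6.9 kb before its start formed loops of 37 PETs, spanning 343.7 kb to chr15:7225714-7228793, and of 27 PETs, spanning 560.6 kb to chr15:7441347-7445977. Both contain Lifr. Lifr had a log2FC of -0.19 and Osmr of 0.47, so the 2 genes differed in direction, and whether the loops differ between genotypes was not measured.

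**Figure D5:**
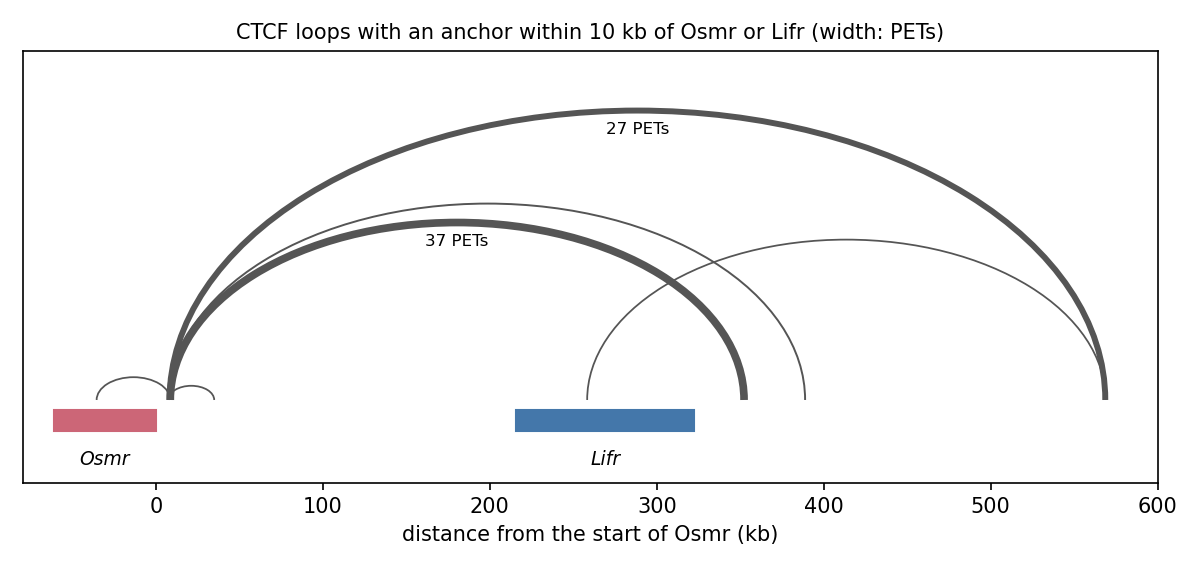
Loops with an anchor within 10 kb of Osmr or Lifr, by distance from the start of Osmr in kb; line width follows the PET count. The loops of 37 and 27 PETs start next to Osmr and pass over Lifr.

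Short stretches of these anchors are shown because they hold the core of the CTCF motif, a 12-base consensus searched on both strands (capitals). They come from the RefSeq genome GRCm38.p6, 5′ to 3′ on the strand of the match, at chr15:6884001-6884072 (minus), chr15:7443916-7443987 (minus), chr11:100957399-100957470 (minus) and chr11:117970044-117970115 (plus).
Osmr anchor: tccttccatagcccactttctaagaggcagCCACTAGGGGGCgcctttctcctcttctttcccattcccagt
Far anchor beyond Lifr: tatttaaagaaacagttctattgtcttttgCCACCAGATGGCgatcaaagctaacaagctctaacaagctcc
Stat3 anchor: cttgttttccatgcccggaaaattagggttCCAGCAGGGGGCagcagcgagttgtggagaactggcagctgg
Socs3 anchor: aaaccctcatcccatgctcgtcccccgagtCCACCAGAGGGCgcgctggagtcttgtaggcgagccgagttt
Over all anchors, taken as 5000-base regions, 17131 of 55480 (30.9%) held a match. Of 26456 genome regions of that length, 646 (2.44%) did. The named anchors have other widths, such as 11976 bases at Cntfr and 3080 at the far end of the 37-PET loop of Osmr. These shares are therefore not directly comparable with them. No match was found in either anchor of the 120-PET loop of Cntfr, in the inner anchor of Stat3, in the far anchor of the 37-PET loop of Osmr or in the far anchor of the 42-PET loop of Socs3, which says only that these letters are not there.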

How the data were processed

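RNA-seq was read from the count table deposited by the authors, with raw counts per gene: reads of whole hippocampus were trimmed with cutadapt 1.18, aligned to GRCm38 with HISAT2 2.1.0 and counted with HTSeq 0.11.1. Loops were read from the list of PET counts deposited by the authors, made with ChIA-PIPE. Genes were named by GENCODE M21 (99.1% had an entry). In R 4.3.3, edgeR 4.0.16 tested genotype in 6 libraries (filterByExpr, TMM, robust quasi-likelihood F test, Benjamini-Hochberg over 16799 genes). CPM uses TMM library sizes, and floors cover counting error only, for 3 counts. The procedure was tested on simulated data.

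Alternatives were DESeq2 1.42.0, its size factors, upper-quartile scaling, no filter on low counts, the replicate number as a block, each library left out, other length measures, windows of 250 kb and 2.5 kb, and minimums of 5 and 10 PETs. Leaving out control replicate 3 with Kdm1a-ifKO replicate 2, and the marker lists under each setting, were chosen after seeing the data. The members and lists were chosen with earlier results of these data known. Lists were written by role (ligands, receptors, JAKs, STATs and adaptors, negative regulators, STAT3-responsive genes, other cytokine receptors) and by cell type; 2 listed genes are not reported here and were left out of the list counts. Named genes are the 9 members, Kdm1a, up to 6 genes per pathway list and 3 per marker list with the smallest adjusted p under 0.05 (otherwise the most abundant), the defining markers, neighbours that passed or lay closest to Stat3 and Il27ra, and the 3 genes most correlated with each of these. Lif, Il6, Osm, Il6ra, Gfap, Icam1, Stat2, Gab1, Il13ra2, Aldoc, Tmem119, Ptpn6, Prox1, Cspg4, Acta2, Lcn2 and genes named only for an overlap were chosen after their values were seen. Histone, Kdm1a ChIP and 4C samples were not used.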

Additional observations from a re-analysis of the deposited data

How the results depend on the processing

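Kdm1a kept direction and side of the threshold under all 12 alternatives of the RNA fit. For the members, chosen with this difference in view, the number past the threshold is a description: 4, and 2 with DESeq2, 3 with the replicate number as a block, and 2 to 3 with 1 library left out, which counts Lifr as lower without control replicate 1. The wider lists gave 18 without a filter on low counts in place of 11, 10 with the block, and 7 to 10 with 1 library left out. Marker lists gave 18 without the filter in place of 11, and 3 to 12 with 1 library left out. Over all tested genes, 646 to 876 were higher with 1 library left out in place of 1014 (797 with the block); 137 to 584 were lower in place of 473, 249 with the block and 1090 without the filter. The log2FC of Il6st was 0.0058 with upper-quartile scaling and -0.084 to 0.042 with 1 library left out. That of Cldn5 was -0.048 to 0.16 with 1 library left out and -0.12 without control replicate 3 and Kdm1a-ifKO replicate 2 together. The level order kept 3 of 9 ranks on CPM and 5 by the longest transcript. A window of 250 kb gave 16 neighbours past the threshold, 15 higher and 1 lower, in place of 4, all higher. The shares were 21.1% of 76 tested genes in place of 14.3% of 28, beside 6.04% of all tested genes higher and 2.82% lower. Of 36 loops, 15 had at least 5 PETs and 7 at least 10; 18 had an anchor in the gene body and 11 within 2.5 kb of the start. Leaving out a library leaves fewer samples; for the other settings the cause was not tested. Among the genes and lists in this tally, results kept their direction and side, or for a count stayed within 1.5 times, in 500 comparisons. Another 81 lost the threshold, 4 gained it, 6 changed sign and 33 counts moved by over 1.5 times. Genes outside the tally, among them Icam1, Stat2, Gab1, Il6ra, Ptpn6, Cspg4 and Mbp, also gained the threshold under some alternatives.

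Replicate numbers do not pair the libraries: log2 CPM residuals of control and Kdm1a-ifKO libraries of the same number correlated at -0.0316, -0.0886 and -0.144 across genes, so no library matched its own number best, and the block is given as an alternative alone. With 3 mice per genotype, whole tissue, counts under 100 for Il27ra and Socs3, and 1 loop library, small differences, the cell type of origin and loop changes are beyond these data.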
